A study of Glycine max with 26 samples.

Results

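In soybean seeds kept in constant light, no transcript among those tested passed between the late subjective night and subjective dawn, the last 4 h of the circadian day. The comparison set 4 arrays at subjective dawn, 48 and 72 h into constant light, against 4 arrays taken 4 h earlier, at 44 and 68 h (late subjective night). These 8 of the 26 arrays were taken by their time labels, and the comparison was chosen with earlier results of these data known. They were compared over both cycles and within each cycle, for the 11481 of 16383 probe sets whose log2 signal averaged above 4 over all 26 arrays. The 16383 may not be all the probe sets of the array, and transcripts outside them were not examined.

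The series followed whole Williams 82 seeds, coats included, harvested from pods tagged at flowering 5 weeks before. Plants were entrained to 12 h of light and 12 h of dark at 25 °C and 75% humidity. The lights then stayed on at 350 µmol m-2 s-1, so that no array of this comparison saw lights come on, and the time of 24 h was subjective dawn. Each time had 2 replicates, each a pool of 8 seeds from 3 plants, and all groups shared genotype and treatment. Separate plants are not stated for both replicates of a time, so p-values cover only the scatter between these pools, which may be technical, and the small number of arrays limits the precision. Values are log2 signals as normalized by the authors. A difference of 1 is therefore a change of 2-fold in signal, and probe sets whose names end in _s_at or _x_at can bind transcripts of more than 1 gene.

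The plant circadian clock is a loop of transcription factors that repress each other in turn, and it keeps running in constant light. In Arabidopsis leaves, the MYB-related factors LHY and CCA1 peak around dawn and repress evening genes, and many genes of photosynthesis climb before dawn in anticipation of light. Seeds are fed by the rest of the plant, and late in filling they load storage protein and oil before they desiccate.

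Markers of the labelled tissue were strongly measured. The storage protein genes GY1 and GY5 (glycinins) and CG-BETA-1 (beta-conglycinin) averaged 16.24, 15.83 and 15.68 in log2 signal over the 26 arrays. The trypsin inhibitor gene KTI3 averaged 15.47. The seed coat genes HPS, for the hydrophobic protein of the seed surface, and EP, for a peroxidase, averaged 14.14 and 13.59. The probe set for CG-1 lay near the lowest signals, at 2.30. The leaf genes CAB3, for a chlorophyll-binding protein, and RCA14, for a Rubisco activase, were also well measured, at 14.89 and 10.89. Array medians ran from 6.11 to 6.42 at dawn and from 6.20 to 6.36 in the late night, and replicates of a time correlated at r of 0.989 to 0.994. A pair of arrays stood apart within their group. The first 48 h replicate had the lowest median of the 8. Over the maturation and desiccation genes the dawn arrays averaged 11.15 to 11.60, and the late night arrays 11.31 to 11.34 except for the first 68 h replicate, at 12.00. Values without single arrays are given beside the results that they move most. The 2 replicates of each of these 4 times also differed in the lowest signal of the array, 1 low and 1 high at each time.

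Over both cycles, 0 of 11481 probe sets (0.0%) passed an adjusted p of 0.05 in limma, and no adjusted p was below 0.4191. At an unadjusted p of 0.05 there were 110 (0.958%), 61 of them higher at dawn (0.531%) and 49 lower (0.427%), where uniform p-values would give 5%. The median difference, dawn minus late night, was 0.02 and the median size of a difference 0.08. The data also bound what could have gone unseen in the mean of the 2 cycles. The 95% confidence interval of the difference lay within 1 log2 unit of no change, a change of 2-fold either way, for 11312 probe sets (98.5%), and within 0.5 for 8301 (72.3%). These intervals are per probe set and are not adjusted for the number of probe sets. They do not bound a change in a single cycle as closely. The interval lay within 0.5 for 38.4% of probe sets in the first cycle and 38.8% in the second. It lay within 1 for 91.6% and 91.3%. In whole seeds, fewer cells of a type and less RNA per cell cannot be told apart. The mean difference between a dawn and a late night array of the same cycle exceeded that between replicates of a time for 3412 probe sets (29.7%). These pairs are not alike, because replicates of a time always differed in their lowest signal and the other pairs did so only in part. Arrays with unlike lowest signals differed more, by a median of 0.184 over 16 pairs, against 0.149 over the 12 pairs with like ones, and the part this had in the 29.7% was not tested.

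The probe set with the smallest p, singled out after its values were seen, showed the step in both cycles. It is Gma.6312.1.S1_s_at, annotated to LOC100797017, a protein-coding gene with no name in the tables used here. Its log2 signal was 7.94 and 7.85 at 48 h and 7.95 and 7.91 at 72 h, against 7.24 and 7.50 at 44 h and 7.32 and 7.22 at 68 h. All 4 dawn arrays lay above all 4 late night arrays, and the dawn arrays sat close together. The difference was 0.59 ± 0.11 (SE), a 1.51-fold higher signal, with 0.53 ± 0.15 in the first cycle and 0.66 ± 0.15 in the second (limma adjusted p = 0.4191). Leaving out 1 of the 8 arrays at a time kept it between 0.53 and 0.66. By time, its mean signal was 7.86 at the 24 h dawn, climbed to 8.19 at 32 h, was down to 7.37 at 44 h, stood at 7.89 at 48 h and 8.25 at 52 h, and reached 7.27 at 68 h before 7.93 at 72 h. The late night times therefore held its lowest means in both cycles, and the 3 dawns had nearly equal means. It was chosen for its small p on these 8 arrays. Its step in each cycle, the gap between its groups and its low late night means are therefore no finding. The same holds for its narrow range with arrays left out. The mean at the 24 h dawn was not part of the difference it was chosen for. Its dawn step exceeded its step into subjective dusk by 0.73 ± 0.15, which again did not pass over all probe sets (limma adjusted p = 0.9992). That contrast contains the dawn step for which the probe set was chosen.

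**Figure D1:**
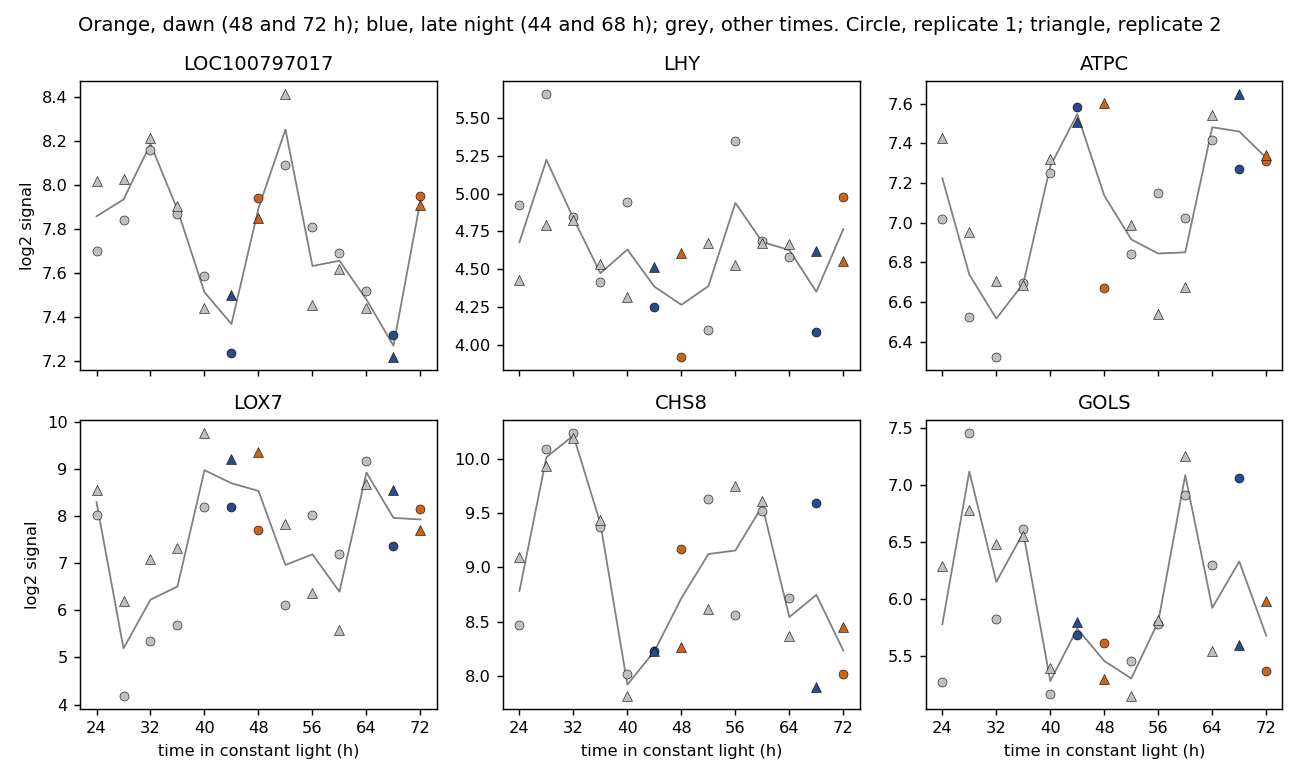
Log2 signal of 6 genes at each time in constant light, in hours; points are single arrays, orange at 48 and 72 h (dawn), blue at 44 and 68 h (late night) and grey elsewhere, circles replicate 1 and triangles replicate 2, and the line joins the means of each time. LOC100797017 shows its lowest means at 44 and 68 h with all orange points above all blue ones, while orange and blue points mix for LHY (the probe set with the higher mean), ATPC, LOX7, CHS8 and GOLS.

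The named genes with the smallest p in each direction, among those with the same sign in both cycles, all had a limma adjusted p of 0.9999. Their direction over the cycles was part of how they were chosen, so it is no finding. Among the 10 higher at dawn, differences ran from 0.18 to 0.50 in log2. They included the transcription factors MYB57, EREB (of the ethylene-responsive family) and BZIP95. The others were BFT (a homologue of an Arabidopsis floral repressor), the glutathione transferases GSTU30 and GST3, AMS1 (a beta-amyrin synthase of the saponin pathway), the nitrate transporter NRT1-3, the calcium-dependent kinase CDPK-BETA and the aquaporin NIP1-8.

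MYB57 had the smallest p of the 10. Its signal was 5.58 and 5.50 at 48 h and 5.22 and 5.14 at 72 h, against 4.52 and 4.91 at 44 h and 5.00 and 5.24 at 68 h. The difference lay almost wholly in the first cycle, and in the second the dawn and late night arrays overlapped. It was 0.44 ± 0.18 (SE) over both cycles, with 0.82 ± 0.26 in the first and 0.06 ± 0.26 in the second.

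EREB had a much higher signal and a smaller difference. It stood at 12.04 and 11.95 at 48 h and at 12.24 and 11.96 at 72 h, against 11.84 and 11.90 at 44 h and 11.84 and 11.86 at 68 h. All dawn arrays lay above all late night arrays, for a difference of 0.18 ± 0.08, a 1.14-fold higher signal. NRT1-3, which brings nitrate into cells, had 6.75 and 6.88 at 48 h and 7.01 and 6.52 at 72 h, against 6.02 and 6.35 at 44 h and 6.45 and 6.42 at 68 h. Its groups did not overlap either, and its difference was 0.48 ± 0.23. At the 24 h dawn, on arrays that this comparison did not use, NRT1-3 averaged 6.19, below the late night mean of 6.31, whereas AMS1 averaged 7.64, close to its mean of 7.58 at the later dawns and above 7.33 in the late night. For 7 of the 10 genes the 24 h mean was nearer to the later dawns than to the late night, against 50.7% of all probe sets tested.

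The 10 genes lower at dawn had differences between -0.23 and -0.52. They included PM29 and PM16 (seed maturation proteins), ERD15 (responsive to dehydration), the small heat shock protein gene HSP23.9, and GOLS (galactinol synthase, the entry enzyme of raffinose sugars). Without the first 68 h replicate PM29 differed by -0.15, PM16 by -0.13, ERD15 by -0.18 and GOLS by -0.10, against -0.33, -0.32, -0.35 and -0.47 with it. The others were EXP2 (an expansin by its symbol), the polyubiquitin gene SUBI-1, the glutathione transferase GSTU37, HPPD (an enzyme of tocopherol and plastoquinone synthesis) and BZIP117.

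EXP2 had the smallest p of these. It stood at 7.53 and 7.59 at 48 h and 7.62 and 7.54 at 72 h, against 7.67 and 7.91 at 44 h and 7.99 and 7.73 at 68 h. The dawn arrays clustered tightly below every late night array. The difference was -0.25 ± 0.10, with -0.23 ± 0.14 in the first cycle and -0.28 ± 0.14 in the second.

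GSTU37, which conjugates glutathione to foreign compounds, had 9.52 and 9.79 at 48 h and 9.61 and 9.71 at 72 h, against 9.85 and 9.94 at 44 h and 10.21 and 9.96 at 68 h. Again the groups were apart, with a difference of -0.33 ± 0.17. Its mean at the 24 h dawn, 10.12, was however above the late night mean of 9.99, and only 4 of the 10 lower genes had a 24 h mean nearer to the later dawns. HSP23.9 had 8.26 and 8.43 at 48 h and 8.22 and 7.62 at 72 h, against 8.37 and 9.13 at 44 h and 8.61 and 8.30 at 68 h, so that its groups overlapped.

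**Figure D2:**
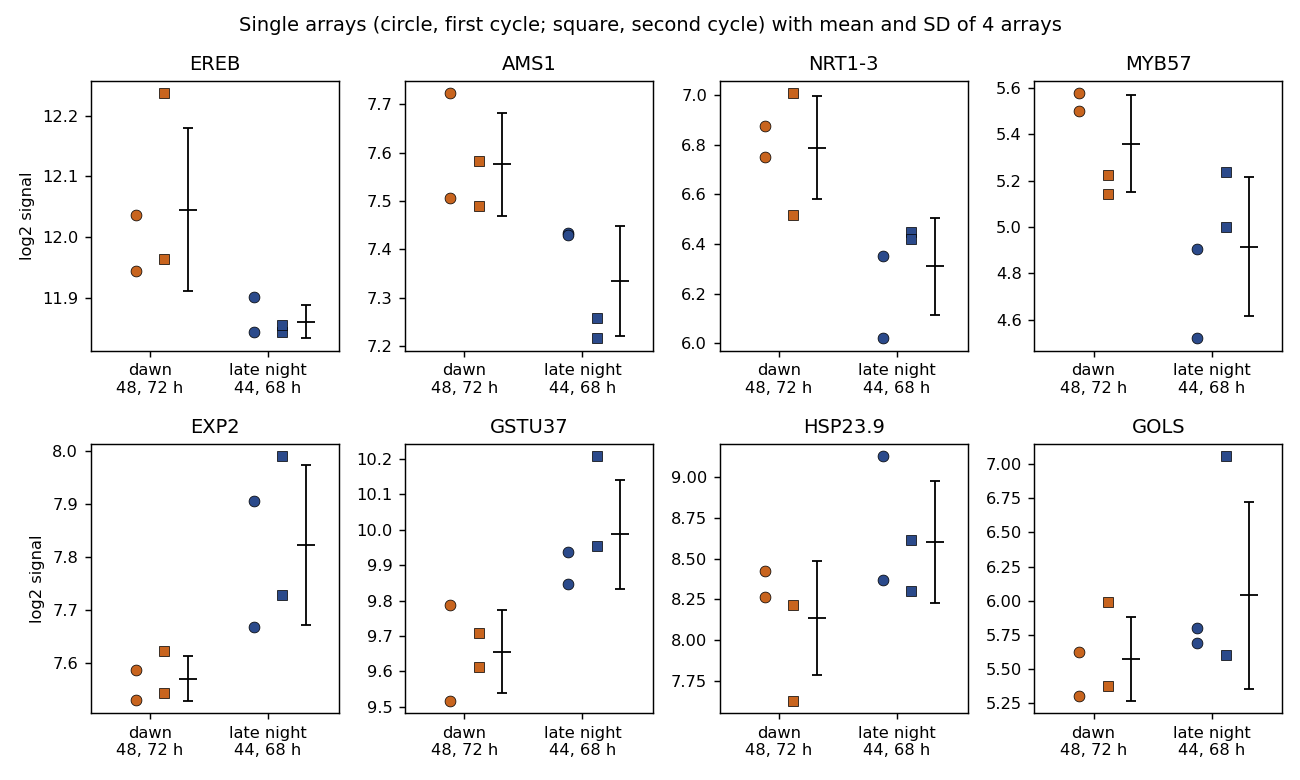
Log2 signal of 8 named genes, 4 higher at dawn (upper row) and 4 lower (lower row), in single arrays at dawn (left, orange) and in the late night (right, blue); circles are the first cycle, squares the second, and bars are the mean and SD of 4 arrays. The groups do not overlap for EREB, AMS1, NRT1-3, EXP2 and GSTU37, and 1 late night array of GOLS lies at 7.06, far above the rest.

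Groups of 4 arrays that did not overlap were about as frequent among named probe sets as among all. The dawn arrays all lay above the late night arrays for 109 probe sets (0.949%) and all below for 106 (0.923%), together 215 (1.87%). With each array centred on its own median the split turned to 105 above and 149 below. Of the 786 named probe sets, 13 (1.65%) did not overlap, all listed here after their values were seen. Above were AMS1, N-26, EREB, PM23, ERF3, PDH, PIP1-10, NRT1-3, GmSHMT08m and EP, and below were CYP1, EXP2 and GSTU37. EP, the seed coat peroxidase, ran from 13.75 to 13.91 at dawn and from 13.45 to 13.72 in the late night. The other seed coat marker, HPS, overlapped, from 13.97 to 14.42 at dawn and from 14.04 to 14.50 in the late night. Whether the share of seed coat in the pools had a part in any result was not tested. N-26 (nodulin 26, a membrane channel first known from root nodules) ran from 7.50 to 7.72 at dawn and from 7.09 to 7.47 in the late night. The nodule marker list was split, with 2 of its 5 tested members higher and a median difference of -0.01.

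The cycles were next compared, to ask whether the differences recurred after 24 h. In the first cycle 0 probe sets passed (0.0%; 112 at unadjusted p, 0.976%), and in the second 0 passed (0.0%; 132, 1.15%), with smallest limma adjusted p of 0.9999 and 0.9993. In the first cycle 39 of these were higher at dawn (0.34%) and 73 lower (0.636%), and in the second 96 were higher (0.836%) and 36 lower (0.314%). The signs of the 2 differences matched for 5611 of 11481 probe sets (48.9%). Across probe sets, which are not independent, the differences of the 2 cycles, which share no array, correlated at a Pearson r of -0.0749 and a Spearman rho of -0.0309. Of the 100 probe sets with the largest moderated t in the first cycle, 54 had the same sign in the second. Their median size was 0.51 in the first cycle, and their median shift in that same direction was 0.01 in the second. The difference between the cycles itself passed for 0 probe sets (0.0%; 114 at unadjusted p, 0.993%) with a smallest limma adjusted p of 1.

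Among genes named for a small p in 1 cycle, MYB57, EXP2, SUBI-1, GST3 and ERD15 had the same sign in both, which their choice over both cycles also required. SRA1, PMM, GH, MIPS and ITPK3 had 1 sign without that requirement, while BZIP126, DHBK, OAS-TL3, GER10, ELIP and CHR1 did not. GER10, OAS-TL3, BZIP126 and PCNA were named for a difference between the cycles, so that their unlike values describe how they were chosen. GER10, for a germin-like protein of the cell wall, had 5.54 and 6.97 at 48 h and 6.81 and 7.11 at 44 h. In the second cycle it had 7.12 and 5.94 at 72 h against 4.42 and 5.80 at 68 h. Replicates of GER10 differed by over 1 log2 unit at 3 of these 4 times. The difference was -0.71 ± 0.55 in the first cycle and 1.42 ± 0.55 in the second. OAS-TL3, for an enzyme that makes cysteine, had 5.10 and 5.02 at 72 h, against 4.12 and 4.67 at 68 h, for a difference of 0.67 ± 0.19. Its first cycle difference was -0.11 ± 0.19. MIPS (myo-inositol-phosphate synthase) and ITPK3 (an inositol phosphate kinase), both of phytate synthesis, were named for a small p in the second cycle. Their differences there, 0.34 ± 0.15 and 0.34 ± 0.14, therefore describe how they were chosen. In the first cycle they differed by 0.07 ± 0.15 and 0.00 ± 0.14. BZIP126 went the other way, with 0.58 ± 0.26 in the first cycle and -0.42 ± 0.26 in the second. PCNA, the sliding clamp of DNA replication, had -0.45 ± 0.27 in the first cycle and 0.54 ± 0.27 in the second.

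**Figure D3:**
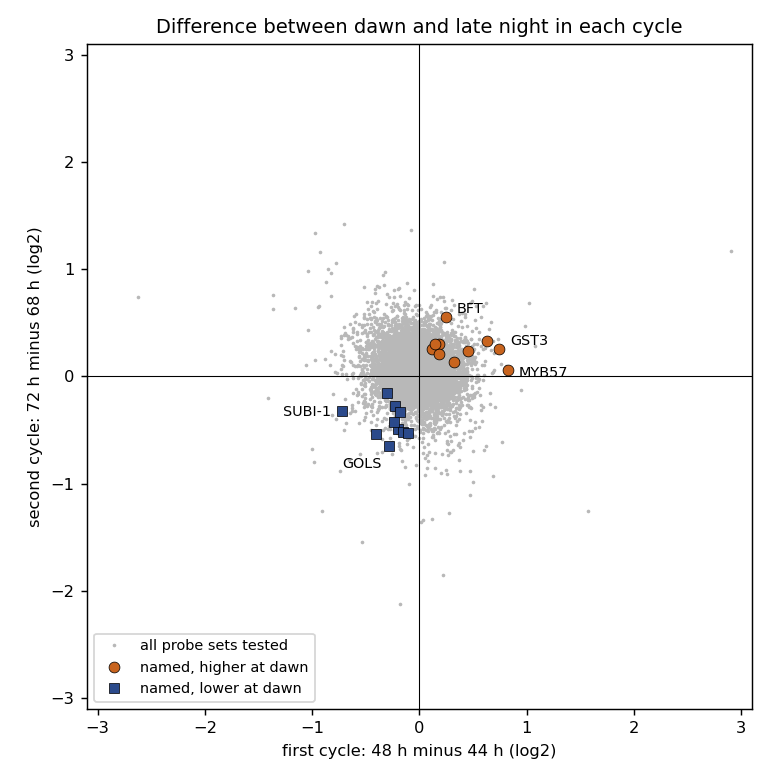
Difference between dawn and late night in log2 in the first cycle (48 h minus 44 h, horizontal) and in the second (72 h minus 68 h, vertical), 1 grey point per probe set, with the 10 named genes higher at dawn in orange and the 10 lower in blue. The cloud has no slope (r of -0.0749), and the coloured genes lie in the matching quadrants because they were chosen to have 1 sign.

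The core clock list gave little signal to compare. LHY was its 1 gene tested, by 2 probe sets with mean log2 signals of 4.25 and 4.63, near the lower limit of the probe sets tested. The list rests on gene symbols, which 11164 of the 16383 probe sets lack, so other clock genes may be measured without a name. The stronger one had 3.92 and 4.61 at 48 h and 4.98 and 4.55 at 72 h, against 4.25 and 4.52 at 44 h and 4.08 and 4.62 at 68 h. The groups overlapped fully. The differences were 0.15 ± 0.23 and 0.22 ± 0.22, with 95% intervals that reach 0.64 and 0.68, so that a dawn level up to about that much higher is within the error. COL10, a CONSTANS-like gene, had 7.30 and 7.50 at 48 h and 7.42 and 7.38 at 72 h, against 7.15 and 7.52 at 44 h and 7.43 and 7.59 at 68 h, a difference of -0.02 ± 0.16. The 3 light signalling probe sets had a median of 0.23, with 0.16 in the first cycle and -0.01 in the second, and of 0.02 without the first 44 h replicate. Among them, the phytochrome gene PHYA, for a red and far-red light receptor, differed by 0.23 ± 0.16, and by 0.10 without the first 68 h replicate.

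Photosynthesis genes as a whole gave no common step, and the size of the thylakoid difference depended on single arrays. The 10 probe sets for thylakoid and tetrapyrrole proteins had a median difference of -0.14, against 0.02 over all tested, with 7 lower at dawn and 0 at an unadjusted p of 0.05. ATPC, for a subunit of the ATP synthase in chloroplasts, had 6.67 and 7.61 at 48 h and 7.31 and 7.34 at 72 h, against 7.59 and 7.51 at 44 h and 7.27 and 7.65 at 68 h. The low array was the first 48 h replicate. The difference was -0.27 ± 0.19, but -0.04 without that array and -0.51 without the second 48 h replicate. ELIP, an early light-inducible protein that binds chlorophyll, differed by 0.04 ± 0.33 in the first cycle and -0.66 ± 0.33 in the second. Its signal was 7.22 and 6.87 at 72 h and 8.10 and 7.30 at 68 h, the highest being the first 68 h replicate. Over both cycles its difference was -0.31 ± 0.23, and -0.11 without that array. Without the first 48 h replicate the thylakoid list's median was close to 0, at -0.005, and without the second 68 h replicate it was -0.004. All probe sets then had medians of 0.07 and 0.04. At the other end, the list's median was -0.20 with 9 of 10 lower without the second 48 h replicate. It was below 0 with any of the 8 arrays left out. The Calvin cycle probe sets had a median of 0.04. FBP (fructose bisphosphatase) differed by 0.07 ± 0.14, RCA14 by -0.02 ± 0.13 and RCAALPHA, also a Rubisco activase, by 0.02 ± 0.16. For RCA14 the 95% interval ran from -0.30 to 0.27, well inside a 2-fold change either way.

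The median of the maturation and desiccation list turned on single arrays. Its 37 probe sets had a median difference of -0.08, with 26 lower at dawn, 0.06 in the first cycle and -0.21 in the second. Without the first 68 h replicate, the array with the high maturation mean, the median was 0.04 and 13 of 37 were lower. Without the second 48 h replicate it was 0.02, and without the second 68 h replicate -0.27. GOLS illustrates this. It had 5.62 and 5.30 at 48 h and 5.38 and 5.99 at 72 h, against 5.68 and 5.80 at 44 h and 7.06 and 5.60 at 68 h. The 1 high value set most of its difference of -0.47 ± 0.29, and without that array the difference was -0.10. PM16 had 11.46, 11.06, 10.83 and 11.45 at dawn, against 11.39, 11.35, 12.05 and 11.28 in the late night, in the order of time and replicate, and PM29 was likewise highest in the first 68 h replicate, at 9.22. BG7S-2, a basic 7S globulin that seeds release in water, had 10.99 to 12.54 at dawn and 11.92 to 13.03 in the late night, for a difference of -0.39 ± 0.34. It was -0.0018 without the first 72 h replicate and -0.77 without the second.

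Of the other seed lists, the 11 storage globulin and lectin probe sets had a median of 0.04, with 0.12 in the first cycle and -0.07 in the second. The 16 probe sets of oil and lipid synthesis had a median of 0.04 and 13 were higher, beside 55.6% of all probe sets. Without the first 72 h replicate the median was 0.0067 and 6 of 16 were lower. All probe sets then had a median of -0.01, with 6283 of 11481 lower. Among the 16, FAD8.2, an omega-3 fatty acid desaturase, had 6.40 to 6.57 at dawn and 6.18 to 6.45 in the late night. The 9 PEP carboxylase and kinase probe sets had a median of 0.11, with 0.11 in each cycle, and 8 were higher, although 0 reached an unadjusted p of 0.05. Without the first 44 h replicate the median was 0.03 over both cycles and -0.04 in the first, where 7 of 9 were then lower. All probe sets then had medians of 0.0039 over both cycles and -0.04 in the first, where 6832 of 11481 were lower. PPCK4, a kinase that activates PEP carboxylase, had 8.11 and 7.70 at 48 h and 7.97 and 8.12 at 72 h, against 7.55 and 7.83 at 44 h and 7.54 and 7.91 at 68 h. Its groups overlapped, and the difference was 0.27 ± 0.18, with 0.22 ± 0.26 in the first cycle and 0.32 ± 0.26 in the second. The 12 seed coat and wall probe sets had medians of 0.20 in the first cycle and -0.20 in the second, which was -0.02 without the first 68 h replicate.

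The lipoxygenase gene LOX7 and the chalcone synthase gene CHS8 varied widely between replicates. LOX7, a seed lipoxygenase that oxidises linolenic and linoleic acid, had 7.72 and 9.36 at 48 h and 8.16 and 7.71 at 72 h, against 8.19 and 9.21 at 44 h and 7.38 and 8.56 at 68 h. Replicates of LOX7 differed by over 1 log2 unit at 3 of the 4 times, and the 95% interval of its difference of -0.10 ± 0.62 ran from -1.42 to 1.22. A change of 2-fold in LOX7 was not detectable at this precision. The 11 lipoxygenase probe sets had a median of 0.06. It was 0.31 without the first 48 h replicate and -0.23 without the second. CHS8, whose enzyme opens the flavonoid pathway, differed by 0.49 ± 0.46 in the first cycle and -0.51 ± 0.46 in the second. Its high values were 9.17 in the first 48 h replicate and 9.59 in the first 68 h replicate, while the other 6 arrays lay between 7.90 and 8.45. The 32 flavonoid and isoflavonoid probe sets had a median of 0.04.

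Over all 26 lists, 396 members were tested and 0 passed. At an unadjusted p of 0.05 there were 6 (1.52%), beside 0.958% of all probe sets: GSTU30, GST3 and MYB57 higher at dawn and HSP23.9, EXP2 and SUBI-1 lower. List medians ran from -0.21 for the auxin list, which has 1 member, to 0.23 for light signalling, with 21 of the 26 within 0.1 of no change, and 12 lists had medians of opposite sign in the 2 cycles. The 40 bZIP probe sets had a median of 0.05 with 30 higher, the 27 aquaporins 0.05 with 18 higher, and the 26 glutathione transferases -0.04 with 19 lower, where 55.6% of all probe sets were higher. Without the second 48 h replicate the bZIP median was 0.0024 with 20 of 40 lower, and the aquaporin median 0.0051 with 13 of 27 lower. All probe sets then had a median of -0.04, with 7002 of 11481 lower. Without the first 68 h replicate the aquaporin median was -0.00038 with 14 of 27 lower, beside -0.0077 and 6037 of all. Without the second 72 h replicate the glutathione transferase median was 0.00082 with 13 of 26 lower, beside 0.05 and 4287 of all.

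**Figure D4:**
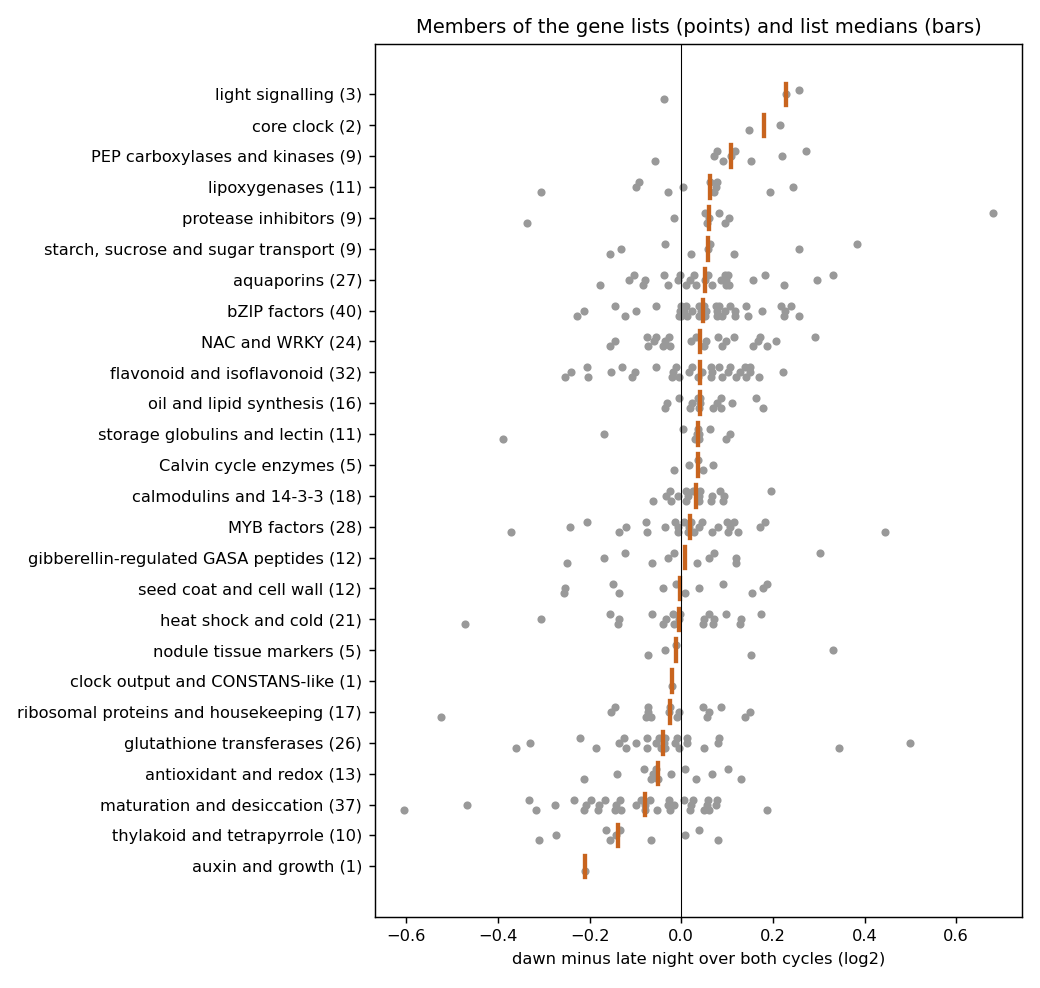
Difference between dawn and late night over both cycles in log2 (horizontal) for the members of 26 gene lists; grey points are probe sets, orange bars the list medians, and the number of members tested is given after each list's name. Medians of 21 lists lie within 0.1 of no change, and each list with 5 or more members has members on both sides of 0.

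The step into dawn was also set against the step into subjective dusk (36 h minus 32 h and 60 h minus 56 h), on 8 other arrays. The difference between the steps passed for 0 probe sets (0.0%; 258 at unadjusted p, 2.25%), with a smallest limma adjusted p of 0.9992. For GOLS the dawn step minus the dusk step was -1.32 ± 0.41 (limma adjusted p = 0.9992). The dawn step within it, -0.47, was -0.10 without the first 68 h replicate. Of the 12 steps of 4 h in the series, those into 48 h and 72 h had the fewest probe sets at an unadjusted p of 0.05, 112 and 132, while the other steps had 159 to 1224. Neighbouring steps share arrays. In all 12 steps 1 probe set passed, at 32 h against 28 h (limma adjusted p = 0.04597), and it has no gene symbol in the annotation used here.

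Probe sets with a daily rhythm on the other arrays gave 1 further view, added after the data were seen. A cosine of 24 h was fitted to the 18 arrays outside this comparison, which hold no array of the 20 h phase, and 51 probe sets (0.444%) passed a limma adjusted p of 0.05. By that curve 50 of them should be lower at dawn than 4 h before, with curve peaks between 19.2 and 21.2 h after subjective dawn, and the curve gave a median difference of -0.19. The observed median was -0.16, and 45 of the 50 (90.0%) were lower, against 57.2% of all probe sets that their curve gave as lower. By cycle, the median was -0.28 in the first, with 45 lower, and -0.02 in the second, with 28 lower, and 25 were lower in both. Of all 11481 probe sets, 6130 were lower in the first cycle (median -0.01) and 4390 in the second (median 0.04). With each array centred on its median, the second cycle median of the 50 was -0.07, with 37 lower. Left out singly, the first 68 h replicate turned it to -0.17 with 44 lower, and the second to 0.08 with 18 lower. The medians of all probe sets were then -0.0031 and 0.08. Across the 51 probe sets, given and observed differences correlated at a Pearson r of 0.333 and a Spearman rho of 0.486, as a description, since probe sets share the arrays. Over both cycles, the median of the 50 was -0.03 with 32 lower without the first 48 h replicate. It was -0.21 with 48 lower without the first 68 h replicate. All probe sets then had medians of 0.07 with 3269 of 11481 lower, and -0.0077 with 6037 lower. The 5 with a gene name were ATPC, ELIP, FBP and 2 of the 3 probe sets of RCA14. ATPC was given as -0.19 and observed at -0.27, or -0.04 without the first 48 h replicate. ELIP was given as -0.25 and observed at -0.31, or -0.11 without the first 68 h replicate. FBP was given as -0.15 and observed at 0.07. The RCA14 probe sets were given as -0.18 and -0.10 and observed at -0.02 and 0.05.

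**Figure D5:**
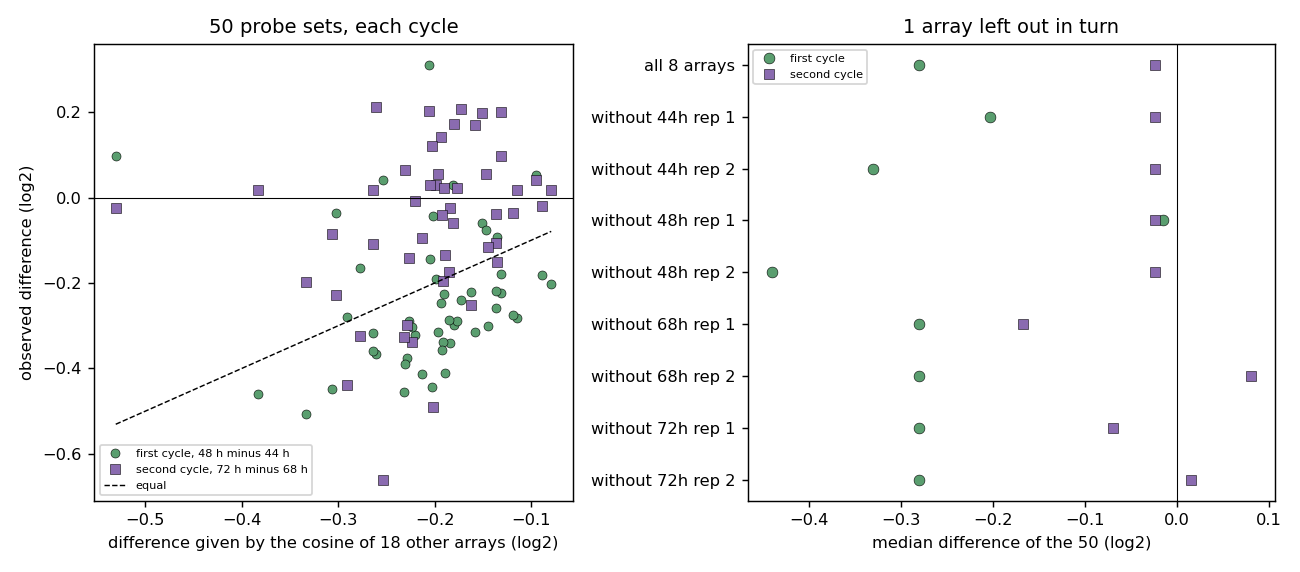
Left, observed difference between dawn and late night against the difference given by a 24 h cosine of 18 other arrays, in log2, for 50 probe sets in the first cycle (circles) and the second (squares), with a dashed line where both are equal. Right, median observed difference of the 50 in each cycle with all 8 arrays and with 1 array left out in turn; the first cycle median of -0.28 is near 0 without the first 48 h replicate.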

How the data were processed

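Single-colour arrays gave deposited log2 signals for each probe set, which the authors normalized with GCRMA, per the submitters' processing notes. Neither its version nor the build behind the array is given in the sources used here. GCRMA sets low signals to a floor, which can compress differences of weak genes, and the lowest signal of the 8 arrays ran from 1.74 to 2.76. Samples were grouped by time label. Probe sets with a mean above 4 were fitted with limma 3.58.1 in R 4.3.3 (lmFit, eBayes) as 13 times over 26 arrays, so that all pairs of replicates share 1 estimate of the spread, with contrasts for both cycles, each cycle, their difference and the dusk step, and Benjamini-Hochberg adjustment at 0.05. The steps were tested on simulated data.

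The arrays compared, the lists and the named genes were chosen with earlier results of these data known. By the platform annotation 5002 probe sets had 1 symbol, 217 had several and 11164 had none, and 4989 of the 5002 were in RefSeq (Glycine_max_v4.0). A name is a symbol or synonym that is not only a locus number, which 786 tested probe sets (622 genes) had. Named genes were, by limma p, the 10 higher and 10 lower with 1 sign in both cycles; 4 in each direction for each cycle and for their difference; the first member of each list; 14 genes with earlier results; and 2 unnamed probe sets in each direction. Lists came from symbol patterns. A promoter motif search was planned and was not run, as no promoter sequences were used here. Alternatives covered filters, normalization, moderation, blocks, covariates and arrays left out.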

Additional observations from a re-analysis of the deposited data

Results flagged for a closer look

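A single array far from the other 3 of its group marked 11 of the 134 groups of 4 arrays tested, where chance marks about 1 in 20. In the first 48 h replicate, FBP stood at 7.00 against 7.52 to 7.57 at the other dawn arrays, DHBK at 7.83 against 8.32 to 8.36, and PMM, for a phosphomannomutase, at 7.71 against 8.04 to 8.11. In the first 68 h replicate, the maturation list averaged 12.0 against 11.31 to 11.34 in the other late night arrays. In that same array PM16 stood at 12.05 against 11.28 to 11.39, GOLS at 7.06 against 5.60 to 5.80, CHR1, a chalcone reductase, at 5.39 against 4.12 to 4.27, and GSTU30 at 5.83 against 5.40 to 5.44. In the second 68 h replicate NIP1-8 stood at 7.71 against 8.14 to 8.17. In the second 44 h replicate GAI2 stood at 8.74 against 8.41 to 8.46 and WRKY7 at 6.02 against 5.88 to 5.90.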

How the results depend on the processing

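The counts of 0 probe sets past the threshold for both cycles, each cycle, their difference, the dusk comparison and the gene lists held under every alternative run, with a smallest limma adjusted p between 0.2092 and 1 over both cycles. The count at an unadjusted p of 0.05, 110, was 182 with quantile normalization, 176 with only the arrays of the contrast and 187 with the arrays' signal floor as a block, and between 63 (without the first 44 h replicate) and 368 (without the second 72 h replicate) with 1 array left out; it was 272 without the second 48 h replicate and 167 without the second 68 h replicate. The 1 probe set passing over all steps was 0 without a filter on low signals and 2 with array median centring. Groups apart numbered 132 above and 153 below with quantile normalization.

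With the replicate number as a block, 0 probe sets passed (smallest limma adjusted p 0.6525), 132 were at an unadjusted p of 0.05, and no call changed. The difference of replicate 1 minus replicate 2 was also correlated between times. Over these 4 times the 6 correlations ran from -0.384 to 0.482, 1 of them over 0.1. Over all 13 times, 34 of 78 were over 0.1, and the highest was 0.606. The number is crossed with the arrays' lowest signal at 72 h. Deviations of single arrays from the mean had a median correlation of 0.24 over the 12 pairs alike in that signal. Over the 16 pairs that were unlike it was -0.05.

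Of 1197 values of single genes under these alternatives, 43 changed sign, 0 of the 20 genes named first. Those 20 were chosen on the same arrays for a small p and 1 sign in both cycles, so their kept sign is no finding. CAB3 (0.01) was -0.0102 with quantile normalization, -0.0062 with centring and -0.0545 with the maturation mean as a covariate, under which CHS8 was 0.20 and RCAALPHA -0.0286. With 1 array left out, log2 differences ran as follows: BZIP126 -0.039 to 0.20, CAB3 -0.15 to 0.17, CHR1 -0.49 to 0.0795, CHS8 -0.44 to 0.41, COL10 -0.11 to 0.073, FBP -0.12 to 0.26, GASA27 -0.28 to 0.24, GASA4 -0.51 to 0.011, GER10 -0.0029 to 0.72, GSTU47 -0.089 to 0.017, LHCP -0.41 to 0.12, LHY -0.024 to 0.32, LOX7 -0.51 to 0.31, PCNA -0.18 to 0.28, RCA14 -0.15 to 0.12, RCAALPHA -0.12 to 0.16, WRKY33 -0.17 to 0.055. The cause was not tested. List medians, the rhythmic set and the steps under alternatives were added after seeing the data. The 95% intervals above set what 4 arrays against 4 can show.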

Other observations

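Without a gene symbol in the annotation used here, Gma.12652.1.S1_at had all dawn arrays above all late night arrays, at 6.38 and 6.39 at 48 h and 6.55 and 6.48 at 72 h, against 5.94 and 6.03 at 44 h and 6.13 and 5.98 at 68 h. Its difference was 0.43 ± 0.11 (SE), with 0.40 ± 0.15 in the first cycle and 0.46 ± 0.15 in the second (limma adjusted p = 0.9999). It averaged 6.59 at the 24 h dawn. Gma.18079.1.S1_s_at was also apart, at 6.68 to 7.36 at dawn and 6.39 to 6.62 in the late night, for a difference of 0.45 ± 0.14. On the other side, 2 probe sets whose IDs share a cluster, Gma.7163.1.A1_at and Gma.7163.2.S1_at, differed by -0.72 ± 0.19 and -0.81 ± 0.23, with overlapping groups. At the 24 h dawn these averaged 8.12 and 9.06, above their late night means of 7.83 and 8.97.

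Only 4 probe sets differed by more than 1 log2 unit over both cycles, all with overlapping groups, and they are given after their values were seen. A pair of them, both annotated to LOC100305762, had opposite signs. Gma.9671.1.S1_at had 8.86 and 4.24 at 48 h and 8.12 and 8.46 at 72 h, against 3.77 and 3.52 at 44 h and 7.55 and 6.69 at 68 h, for a difference of 2.04 ± 1.30. GmaAffx.1301.14.S1_s_at had 12.99 and 13.22 at 48 h and 8.91 and 12.71 at 72 h, against 12.83 to 13.72 in the late night, for a difference of -1.15 ± 0.68, set by the first 72 h replicate. The others, Gma.3314.1.S1_at and Gma.6802.1.A1_at, differed by -1.08 ± 0.51 and -1.04 ± 0.65.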
